A study of Mus musculus with 6 samples.

Results

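The mitochondrial ribosomal proteins are described here through the transcripts of their 78 protein-coding genes in mouse heart. The genes were chosen by name alone, as protein-coding entries called Mrpl or Mrps followed by a number, out of 55401 genes in the deposited table. There were 49 Mrpl and 29 Mrps genes, and all 78 passed the filter on low counts, which left 16759 genes for testing. The hearts came from C57BL/6 mice aged 6 to 8 weeks, 3 of them controls and 3 induced with angiotensin II (Ang II), a vasoconstrictor peptide that raises the load on the heart. The labels name no genotype, sex, vehicle, dose or duration for either group. Each library was made from poly(A) RNA of 1 heart, and the p-values measure the spread between these samples. The series title concerns the compound corynoline, and no library from an animal given it was analysed here. The comparison therefore asks how the transcripts of the mitochondrial ribosome differed between control and Ang II hearts.

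The mitochondrial ribosome translates the few messenger RNAs encoded in mitochondrial DNA, all of which make subunits of the respiratory chain and ATP synthase. Its ribosomal RNAs are transcribed inside the organelle, while every one of its proteins is encoded in the nucleus, made in the cytosol and imported. The large subunit forms peptide bonds and releases the new chain through an exit tunnel on the inner membrane, and the small subunit reads the messenger RNA. Heart muscle is rich in mitochondria and depends on this machinery for oxidative phosphorylation. Some gene names do not match the position of the protein: Mrps30 and Mrps18a are large-subunit proteins in structures of the ribosome, and the product of Mrps36 is now assigned to the 2-oxoglutarate dehydrogenase complex. By structure the list therefore held 51 large-subunit genes, 26 small-subunit genes and Mrps36.

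Total counts per library ran from 51202916 to 63564869, of which mitochondrially encoded genes took 35.8% to 47.6%. One library, Ang II replicate 1, stood apart from the others. Its correlation with the other 5 libraries over log2 CPM of all tested genes was 0.931 to 0.941, where every other pair reached 0.969 or more. Its share of counts on nuclear ribosomal RNA genes was 1.86%, beside 0.254% to 0.854% in the other 5. Cardiomyocyte transcripts were abundant in every library: the summed level of Myh6, Tnnt2, Actc1, Myl2, Ryr2 and Tnni3 was 34762 to 39763 CPM in control and 35256 to 45385 CPM in Ang II hearts. The 4 leukocyte markers summed to 17.5 to 21.5 CPM in control and 11.7 to 15.1 CPM in Ang II hearts without overlap; of these Adgre1, Cd68 and Ptprc were detected in every library and Cd3e was at no more than 0.145 CPM. The 3 smooth muscle markers summed to 117 to 139 CPM in control and 125 to 168 CPM in Ang II hearts, and the 3 adipocyte markers to no more than 2.94 CPM. All 4 endothelial markers had a log2 change below 0, with a summed level of 525 to 569 CPM in control and 373 to 414 CPM in Ang II hearts. The 4 red blood cell markers summed to 692 to 1745 CPM in control and 383 to 519 CPM in Ang II hearts. The 4 fibroblast markers summed to 141 CPM in Ang II replicate 1 and to 373 to 423 CPM in the other 5 libraries. Most of that gap was in Dcn, at 69.2 CPM there and 279 to 327 CPM elsewhere, while Col1a1 was lower in all 3 Ang II libraries, at 33.5 to 36.8 CPM beside 42.5 to 51.4 CPM in control. At an unadjusted p under 0.05 by edgeR, 2 of 4 endothelial, 4 of 4 red blood cell, 2 of 3 tested leukocyte, 1 of 4 fibroblast and 1 of 3 adipocyte markers were lower (3.94% of all genes were), and none of them was called after adjustment. The part of these differences in the values below was not tested, and in whole tissue fewer cells of a type and less RNA per cell cannot be told apart.

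None of the 78 mitochondrial ribosomal protein genes was called by edgeR (quasi-likelihood, p-values adjusted by Benjamini and Hochberg over all genes, threshold 0.05), which called 6 of 16759 genes (0.0358%). Their smallest adjusted p was 0.511. DESeq2 also called 0 of them, beside 1.65% of all genes, and limma on FPKM 0, beside 0.0248%. The direction of the estimates was nevertheless lopsided. The log2 change from control to Ang II was above 0 in 74 of the 78 genes, beside 50.9% of all genes tested, and its median was 0.31, beside 0.01 over all genes. At an unadjusted p under 0.05, 4 of them were higher in Ang II hearts (3.57% of all genes were) and 0 were lower (3.94% of all genes were). In 23 of the 78 every Ang II library lay above every control library, a pattern found in 7.97% of all genes. The opposite pattern, found in 9.21% of all genes, occurred in none of them.

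Most of the height of these estimates came from Ang II replicate 1. As a difference from the control mean on the log2(CPM + 0.5) scale, where CPM are counts scaled to a common library size, the median over the 78 genes was 0.03, -0.05 and 0.04 in the control libraries. It was 0.64, 0.07 and 0.11 in Ang II replicates 1, 2 and 3. In Ang II replicate 1, 69 of the 78 lay above the control mean (48.4% of all genes did) and 19 lay above it by 1 or more (6.59% of all genes did), while in Ang II replicates 2 and 3 together 0 of them did so (0.973% of all genes did). In 60 of the 78 the highest of the 3 Ang II values was that of replicate 1, and over all tested genes this held for 42.7%. That library alone exceeded all controls in 34 of the 78 (20% of all genes), while in 5 of them both other Ang II libraries did so and replicate 1 did not (10.5% of all genes). The remaining libraries still leaned upward: 42 of the 78 were above the control mean in both Ang II replicates 2 and 3, beside 36.8% of all genes.

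**Figure D1:**
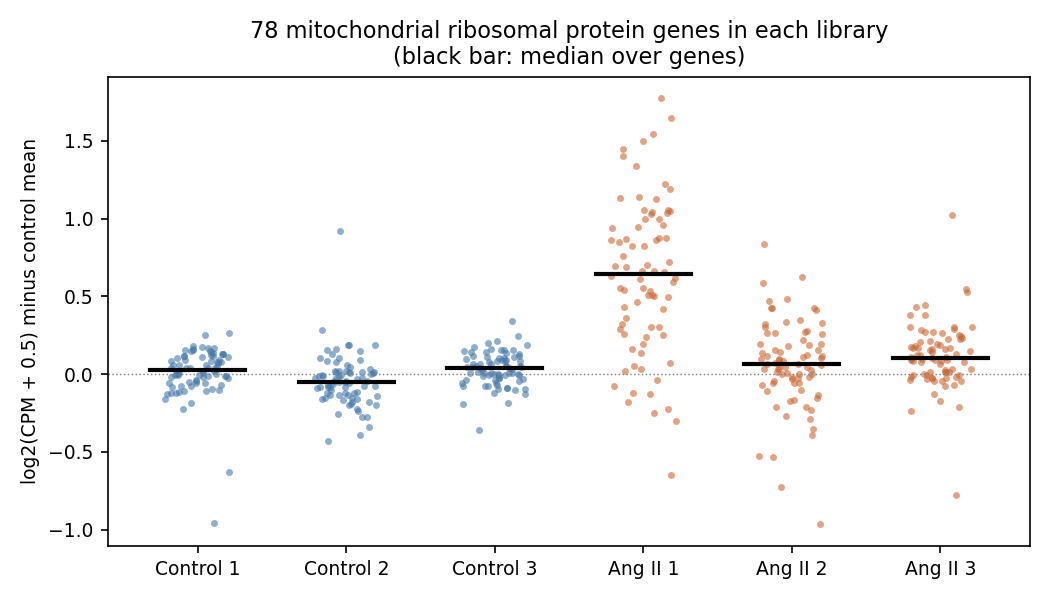
Each point is 1 of the 78 mitochondrial ribosomal protein genes in 1 library, as its log2(CPM + 0.5) minus the mean of the 3 control libraries, and black bars are medians over genes. The median was 0.64 in Ang II 1 and between -0.05 and 0.11 in the other 5 libraries.

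Fitted without Ang II replicate 1, the log2 change was above 0 in 56 of the 78 genes (48.6% of all genes) with a median of 0.08, beside -0.01 over all genes. edgeR again called 0 of them, where it called 129 of 17661 genes (0.73%), and the smallest adjusted p was 0.0736. At an unadjusted p under 0.05, 13 were higher (7.75% of all genes were) and 1, Mrpl15, was lower (7.6% of all genes were). The 13 were Mrps36, Mrps2, Mrpl2, Mrpl9, Mrps31, Mrpl50, Mrpl4, Mrps5, Mrpl21, Mrpl1, Mrps30, Mrpl10 and Mrpl3. Their log2 changes in that fit ran from 0.23 for Mrps30 to 0.46 for Mrps31.

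The 4 genes at an unadjusted p under 0.05 with all 6 libraries were Mrps36, Mrpl2, Mrpl21 and Mrpl58. Mrps36 (chr13:100735955-100744659, minus strand, GRCm38) was at 41.5, 37.3 and 39.2 CPM in control replicates 1, 2 and 3 and at 72.1, 53.1 and 53.1 CPM in the Ang II hearts in the same order. All Ang II values lay above all control values. Its mean was 39.3 ± 2.10 CPM (SD, n = 3) in control and 59.4 ± 10.97 CPM (SD, n = 3) in Ang II hearts, a fitted ratio of 1.51. The log2 change was 0.60 (SE 0.17, unadjusted p = 0.0106, adjusted p = 0.511 by edgeR), and it was 0.43 without Ang II replicate 1. Processed pseudogenes of Mrps36 reached 99.3% identity to its coding sequence, and Mrps36-ps2, the one with the highest count of its own, had a mean count of 2.55% of that of Mrps36.

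Mrpl2 encodes a large-subunit protein that lies near the peptidyl transferase centre. Its level was 35.9, 33.8 and 38.5 CPM in control and 55.2, 46.1 and 47.1 CPM in Ang II hearts, so that the groups did not overlap. The log2 change was 0.45 (SE 0.14, adjusted p = 0.538 by edgeR), and without Ang II replicate 1 it was 0.37. Mrpl21, a large-subunit protein with a bacterial counterpart, was at 20.9, 17.4 and 24.8 CPM in control and at 29.7, 29.1 and 28.5 CPM in Ang II hearts. The 3 Ang II values were close together and all above the highest control, with a log2 change of 0.47 (SE 0.17, adjusted p = 0.593 by edgeR) and of 0.45 without Ang II replicate 1. Exons of Mrpl21 overlap those of Ighmbp2 on the opposite strand by 117 bases. Mrpl58 encodes a peptidyl-tRNA hydrolase built into the large subunit, also known as ICT1, which can release chains from stalled ribosomes. It was at 11.97, 11.5 and 14.8 CPM in control and at 20.4, 23.1 and 13.96 CPM in Ang II hearts. Here the groups overlapped, since Ang II replicate 3 lay below control replicate 3, and Ang II replicate 2 was the highest. Its log2 change was 0.58 (SE 0.23, adjusted p = 0.628 by edgeR).

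**Figure D2:**
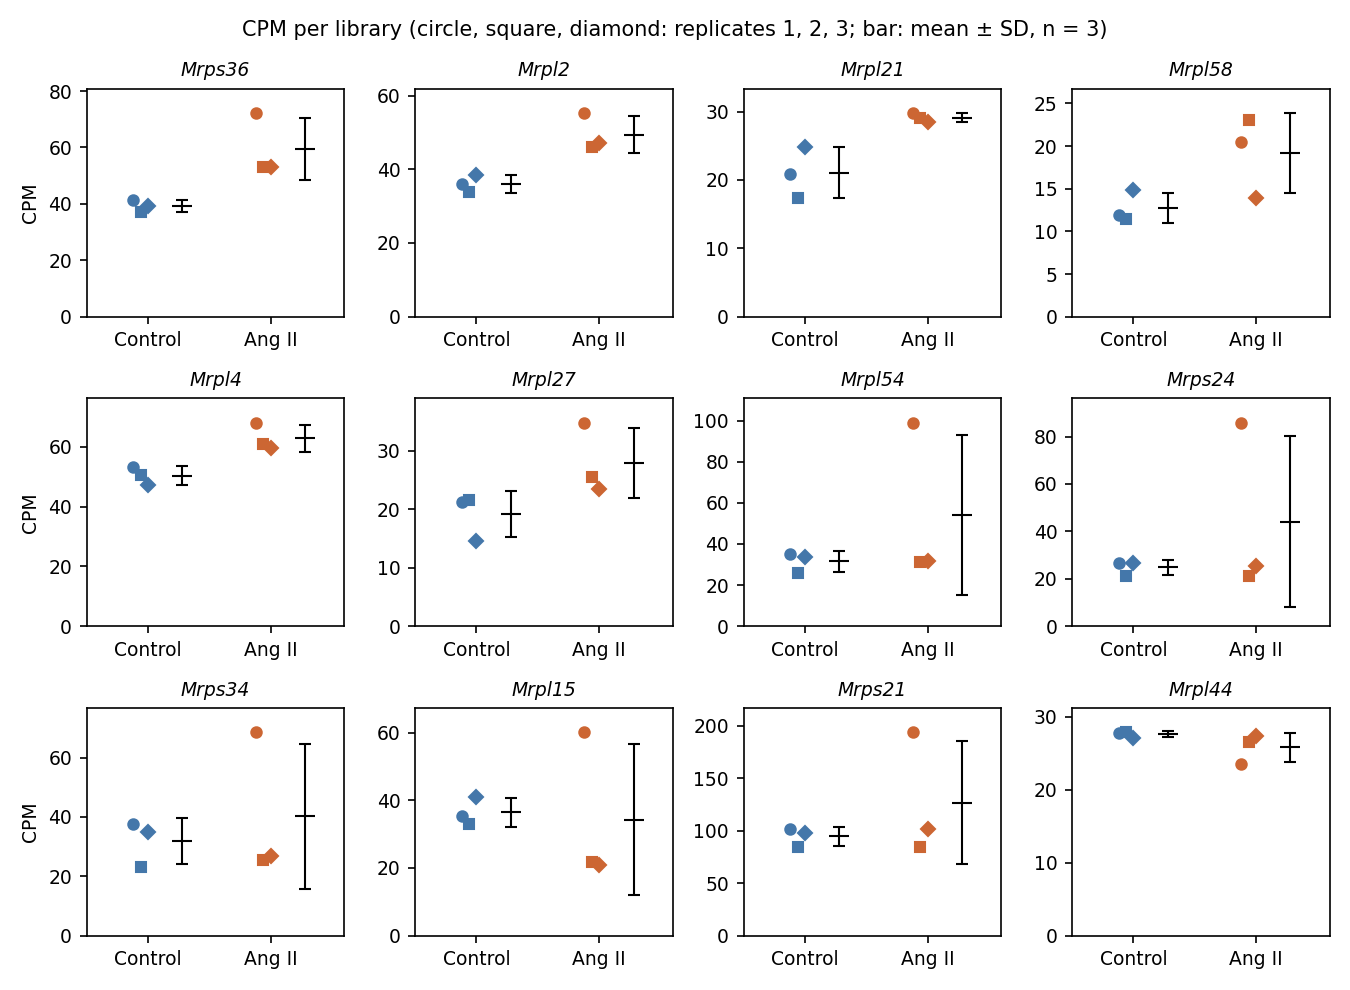
Each panel plots CPM of 1 gene per library from 0 upward, control in blue and Ang II in orange, with circle, square and diamond for replicates 1, 2 and 3 and the mean ± SD (n = 3) beside each group. Mrps36, Mrpl2, Mrpl21, Mrpl4 and Mrpl27 show no overlap between groups, while in Mrpl54, Mrps24, Mrps34 and Mrps21 Ang II replicate 1 alone is high and in Mrpl15 the other 2 Ang II libraries lie below the controls.

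Promoters of 69 of the 78 genes were in the RefSeq table (GRCm38.p6), each as 250 bases before and 50 bases after the annotated start. Of the 4 genes above, 3 had a single start there and are shown, together with Mrps21, the gene with the highest FPKM, and Mrps11, which shares its start region with Mrpl46. Each sequence is written 5′ to 3′ on the strand of its gene, and capitals mark a match, on either strand, to the motifs counted further on. The windows are chr13:100744610-100744909 (minus strand) for Mrps36, chr19:3282792-3283091 (plus strand) for Mrpl21, chr11:115403502-115403801 (plus strand) for Mrpl58, chr3:95871465-95871764 (minus strand) for Mrps21 and chr7:78782881-78783180 (plus strand) for Mrps11.
Mrps36: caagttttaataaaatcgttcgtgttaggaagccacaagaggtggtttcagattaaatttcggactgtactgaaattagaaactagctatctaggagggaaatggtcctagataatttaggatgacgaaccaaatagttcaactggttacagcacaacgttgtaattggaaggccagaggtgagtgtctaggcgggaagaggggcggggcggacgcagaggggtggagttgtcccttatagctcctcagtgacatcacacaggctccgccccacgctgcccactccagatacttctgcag
Mrpl21: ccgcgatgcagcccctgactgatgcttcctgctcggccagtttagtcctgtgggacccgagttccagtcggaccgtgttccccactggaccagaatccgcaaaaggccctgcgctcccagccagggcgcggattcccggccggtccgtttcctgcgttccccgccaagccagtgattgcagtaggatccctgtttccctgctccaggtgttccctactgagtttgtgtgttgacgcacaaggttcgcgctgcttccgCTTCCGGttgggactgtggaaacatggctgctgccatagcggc
Mrpl58: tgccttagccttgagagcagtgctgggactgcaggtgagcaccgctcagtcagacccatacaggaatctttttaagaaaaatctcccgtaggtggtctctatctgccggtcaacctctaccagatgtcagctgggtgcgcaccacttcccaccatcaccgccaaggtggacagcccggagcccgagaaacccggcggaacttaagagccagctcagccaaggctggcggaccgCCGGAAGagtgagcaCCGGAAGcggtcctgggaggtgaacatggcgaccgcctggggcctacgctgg
Mrps21: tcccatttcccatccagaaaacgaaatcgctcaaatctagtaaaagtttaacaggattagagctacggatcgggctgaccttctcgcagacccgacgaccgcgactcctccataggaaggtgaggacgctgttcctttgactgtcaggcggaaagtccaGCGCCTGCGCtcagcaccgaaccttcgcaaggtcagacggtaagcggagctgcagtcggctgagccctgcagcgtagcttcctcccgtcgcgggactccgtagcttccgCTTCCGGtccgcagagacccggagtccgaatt
Mrps11: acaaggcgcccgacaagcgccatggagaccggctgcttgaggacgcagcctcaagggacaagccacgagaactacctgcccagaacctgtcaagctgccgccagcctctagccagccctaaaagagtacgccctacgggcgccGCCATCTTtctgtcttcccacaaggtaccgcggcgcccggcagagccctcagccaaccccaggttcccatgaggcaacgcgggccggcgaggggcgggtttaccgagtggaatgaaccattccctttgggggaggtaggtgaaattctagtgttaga
Capitals mark an ETS-type motif in Mrpl21, 2 of them in Mrpl58, an NRF1 motif followed by an ETS-type motif in Mrps21 and a YY1 motif in Mrps11. The Mrps36 window held none of the 4 motifs searched.

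NRF1, the ETS factor GABP and YY1 are transcription factors known to act at promoters of nuclear genes for mitochondrial proteins. The letters searched on both strands were GCGCA and GCGC with 1 base between them for NRF1, CCGGAAG for ETS factors, AAGATGGC for YY1 and CACGTG for the E-box. The NRF1 letters stood in 13 of the 69 promoters (18.8%, beside 10.6% of promoters of tested genes and 5.2% of all promoters). The ETS letters stood in 26 (37.7%, beside 18.4% and 9.9%) and the YY1 letters in 12 (17.4%, beside 4.8% and 3.2%). The E-box letters stood in 5 (7.2%, beside 11.4% and 8.1%). Median GC content was 58.3% in the 69 promoters and 61.3% in those of tested genes. The median log2 change was 0.33 with and 0.30 without the ETS letters, 0.27 and 0.32 for NRF1, 0.33 and 0.28 for YY1, and 0.35 and 0.31 for the E-box. Without Ang II replicate 1 these medians were 0.07 and 0.09 for ETS, -0.0084 and 0.09 for NRF1, 0.11 and 0.08 for YY1, and -0.02 and 0.09 for the E-box. These differences were not tested. A match is a run of letters and was not tested as a binding site.

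Stalk proteins of the large subunit, which recruit translation factors or move tRNA, were all estimated higher. Mrpl12, which forms the flexible part of the stalk, was at 109.9, 106.6 and 118 CPM in control and at 231.9, 115.9 and 110.8 CPM in Ang II hearts. Only replicate 1 of the Ang II group was outside the control range, and the log2 change was 0.46 with it and 0.03 without it. Its partner in the stalk base, Mrpl11, followed the same pattern, at 32.2, 27.3 and 32.5 CPM in control and 70.3, 32.04 and 29.6 CPM in Ang II hearts, and its log2 change was 0.52 with replicate 1 and 0.01 without it. Mrpl10, the anchor of the stalk, differed from these in that its groups did not overlap. It was at 23.2, 25.05 and 25.4 CPM in control and 30.3, 28.05 and 30.3 CPM in Ang II hearts, with a log2 change of 0.27 (SE 0.13). Mrpl1, on the opposite stalk where spent tRNA leaves, was at 14.2, 14.7 and 17.7 CPM in control and at 19.5, 21.8 and 18.7 CPM in Ang II hearts, again without overlap and with a log2 change of 0.36 with Ang II replicate 1 and 0.38 without it. Over the 4 stalk genes the median log2 change was 0.41, or 0.14 without Ang II replicate 1.

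Genes for proteins near the catalytic centre were above control at the median in each Ang II library. The median difference from control over Mrpl2, Mrpl3, Mrpl16 and Mrpl27 was 0.43, 0.31 and 0.26 in Ang II replicates 1, 2 and 3. Mrpl27 was at 21.3, 21.6 and 14.6 CPM in control and 34.8, 25.5 and 23.5 CPM in Ang II hearts, all above the controls, with a log2 change of 0.54 (SE 0.23, adjusted p = 0.663 by edgeR), or 0.35 without Ang II replicate 1. Mrpl3 was at 41.3, 47.2 and 45.4 CPM in control and 40.9, 53.7 and 51.7 CPM in Ang II hearts. Unlike most of the family it was lowest in Ang II replicate 1, and its log2 change was 0.13 with that library and 0.24 without it. Mrpl16 ran from 34.6 to 40.2 CPM in control and from 38.1 to 45.3 CPM in Ang II hearts, with overlap and a log2 change of 0.11, or 0.03 without Ang II replicate 1. Mrpl4, another large-subunit protein with a bacterial counterpart, was at 53.2, 50.7 and 47.0 CPM in control and 68.0, 60.8 and 59.6 CPM in Ang II hearts. Its groups did not overlap, and the log2 change was 0.32 (SE 0.13), or 0.26 without Ang II replicate 1.

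Around the polypeptide exit tunnel, 7 of 8 genes had a log2 change above 0 and the median was 0.17, or 6 of 8 and 0.09 without Ang II replicate 1. Mrpl45, which binds the inner membrane at the tunnel exit, was at 30.5, 32.4 and 36.2 CPM in control and at 36.3, 40.0 and 37.4 CPM in Ang II hearts. All Ang II values lay above the controls, by little, and the log2 change was 0.20 (SE 0.14). Mrpl39 showed no shift, with 34.3 to 41.7 CPM in control and 33.1 to 41.7 CPM in Ang II hearts and a log2 change of 0.01. Mrpl44 was the exception of the 8, at 27.9, 27.9 and 27.1 CPM in control and 23.6, 26.6 and 27.3 CPM in Ang II hearts. Its log2 change was -0.10 (SE 0.13), or -0.03 without Ang II replicate 1, the lowest of the 6. Mrps30, a large-subunit protein despite its name, was at 25.5, 25.7 and 26.7 CPM in control and at 44.3, 29.8 and 31.0 CPM in Ang II hearts. No value overlapped, and the log2 change of 0.43 (SE 0.19) came to 0.23 without Ang II replicate 1.

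The widest gap between Ang II libraries in the small subunit was in Mrps24, a protein of the mRNA entry site. It was at 26.8, 21.1 and 26.7 CPM in control and at 85.7, 21.3 and 25.2 CPM in Ang II hearts. Replicate 1 was far above all other libraries and replicates 2 and 3 were within the control range, so that the log2 change of 0.83 (SE 0.53) became -0.09 without it. Mrps24 shares 226 bases of exon with Urgcp on the same strand. Mrps34 gave the same contrast, with 37.6, 23.0 and 35.0 CPM in control and 68.5, 25.5 and 26.8 CPM in Ang II hearts. Its log2 change was 0.34 with Ang II replicate 1 and -0.28 without it, and its exons are overlapped by Mapk8ip3 on the opposite strand and Nme3 on the same one. Mrps12, a decoding-centre protein, was at 17.7, 15.6 and 20.5 CPM in control and 35.1, 15.8 and 16.3 CPM in Ang II hearts, and its log2 change also turned from 0.32 to -0.16 without that library.

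Other small-subunit genes were higher in all Ang II hearts or mainly in replicates 2 and 3. Mrps7, which contacts the ribosomal RNA of the head, was at 58.3, 57.8 and 61.3 CPM in control and at 105.0, 63.7 and 63.8 CPM in Ang II hearts, without overlap, for a log2 change of 0.39 (SE 0.23), or 0.11 without Ang II replicate 1. Mrps22, a mitochondria-specific protein, ran from 7.98 to 8.78 CPM in control and from 9.71 to 10.2 CPM in Ang II hearts, also without overlap, for a log2 change of 0.24 (SE 0.14). Mrps10 ran from 11.6 to 14.3 CPM in control and from 16.0 to 16.4 CPM in Ang II hearts, for a log2 change of 0.28 (SE 0.15). For each of these 3 genes the adjusted p by edgeR was above 0.7, at 0.732, 0.732 and 0.708. Mrps5 was at 19.9, 20.6 and 21.7 CPM in control and 19.7, 27.8 and 23.7 CPM in Ang II hearts, which put Ang II replicate 1 below every control and the other 2 above. Mrps2 was at 14.5, 14.3 and 14.5 CPM in control and 14.7, 19.5 and 18.9 CPM in Ang II hearts, and its log2 change was 0.30 with Ang II replicate 1 and 0.42 without it. Mrps9, which sits in the head of the small subunit, was nearly level between groups. It was at 55.3, 55.5 and 55.6 CPM in control and 56.7, 53.2 and 53.9 CPM in Ang II hearts, with a log2 change of -0.02 (SE 0.12).

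The 3 paralogues related to bacterial S18 were each highest in Ang II replicate 1. Mrps18a, the large-subunit member, was at 57.8, 45.5 and 50.9 CPM in control and 120.3, 46.7 and 56.7 CPM in Ang II hearts. Mrps18b was at 28.3, 25.2 and 23.3 CPM in control and 51.6, 24.97 and 21.6 CPM in Ang II hearts. Mrps18c was at 24.8, 15.8 and 23.0 CPM in control and 34.0, 16.2 and 20.4 CPM in Ang II hearts. In each of the 3, Ang II replicates 2 and 3 were within or below the control range. Without Ang II replicate 1 their log2 changes were 0.01, -0.14 and -0.21, in place of 0.54, 0.35 and 0.15.

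Only 4 of the 78 genes had a log2 change below 0: Mrpl48, Mrpl44, Mrpl15 and Mrps9. Mrpl15, a large-subunit protein with a bacterial counterpart, was at 35.3, 32.9 and 41.0 CPM in control and at 60.1, 21.7 and 20.98 CPM in Ang II hearts. Ang II replicate 1 was above all controls and replicates 2 and 3 were below all controls, so the log2 change was -0.09 (SE 0.42) with all libraries. Without Ang II replicate 1 it was -0.77, a ratio of 0.588, with an unadjusted p of 0.000925 and an adjusted p of 0.0736 by edgeR. Mrpl48 was at 23.4, 28.6 and 23.4 CPM in control and 26.4, 19.0 and 22.2 CPM in Ang II hearts, for a log2 change of -0.16 (SE 0.18), or -0.29 without Ang II replicate 1, with overlap. Its pseudogene Mrpl48-ps, 98.1% identical, had a mean count of its own of 7.86% of that of Mrpl48. The spread between hearts was also wide in Mrps23, a mitochondria-specific protein, which was at 20.2, 75.3 and 40.8 CPM in control and at 33.3, 27.2 and 81.2 CPM in Ang II hearts. Its highest control was 3.73 times its lowest, where the median of that ratio over the 78 genes was 1.19. Only Mrps23, Mrpl32, Mrps34 and Mrps18c reached a ratio of 1.5, which 19.3% of genes with a mean CPM of at least 3 did.

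The difference in Ang II replicate 1 ran with transcript length, taken from the annotated mRNA with the longest coding sequence of a gene. Where several mRNAs tied, the shortest of them was used. The 16 genes with an mRNA of up to 750 bases had a median difference from control of 1.04 in that library, and the 10 genes of 751 to 1000 bases had 1.02. Medians in the longer classes were 0.52 for the 22 genes of 1001 to 1500 bases, 0.27 for 6 genes up to 2000, 0.36 for 8 genes up to 3000 and 0.50 for the 16 genes above 3000 bases. Over all 10419 genes with a mean CPM of at least 3 the same classes gave 0.91, 0.64, 0.28, 0.13, -0.04 and -0.21. Members of every class thus had a higher median than all genes of their class in that library. Spearman's rho between length and difference was -0.48 over the 78 genes and -0.391 over all genes in Ang II replicate 1, as a description across genes of 1 library. In Ang II replicates 2 and 3 it was 0.292 and 0.042 over the 78, and 0.03 and -0.004 over all genes. In control replicates 1, 2 and 3, each set against the mean of all controls, it was -0.349, 0.342 and -0.171 over the 78 and -0.266, 0.336 and -0.099 over all genes, so that a rank relation with length was also present among controls. The class medians of all genes differed less there, running from 0.12 to -0.04, from -0.15 to 0.06 and from 0.02 to -0.01 from the shortest to the longest class. After subtracting the length trend of all genes in each library, the medians over the 78 were -0.02, -0.0009 and 0.03 in control and 0.25, 0.07 and 0.11 in Ang II replicates 1, 2 and 3. The part of length in the values of single genes was not tested.

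**Figure D3:**
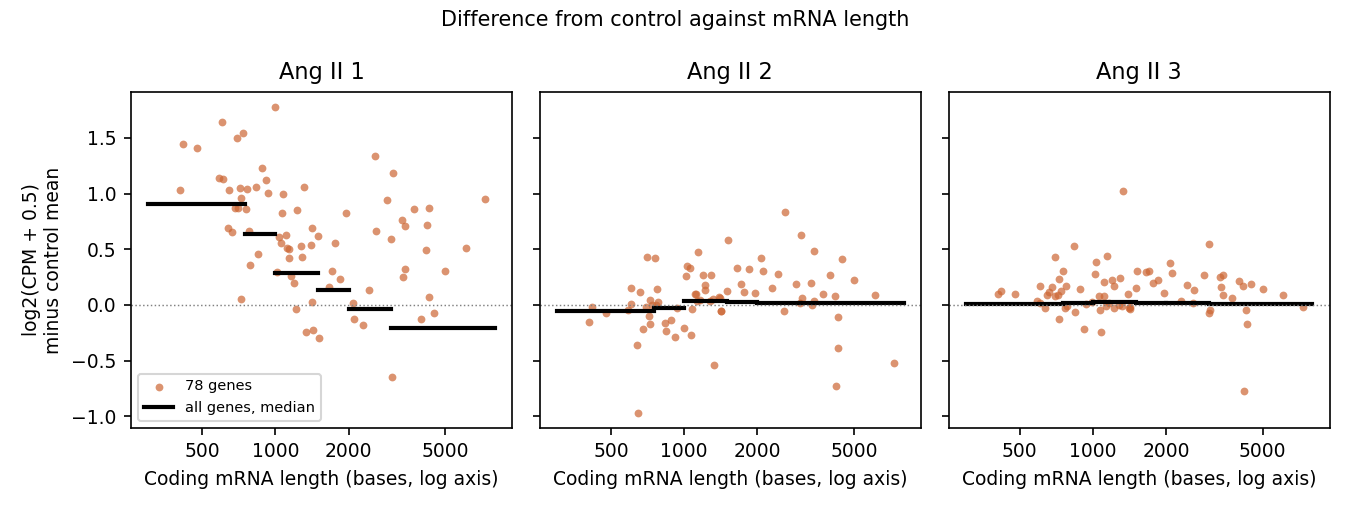
Each point is 1 of the 78 genes in Ang II replicates 1, 2 and 3. The horizontal log axis is the length of its mRNA with the longest coding sequence. The vertical axis is its log2(CPM + 0.5) minus the control mean. Black lines are medians over all genes with a mean CPM of at least 3 in 6 length classes, which fell from 0.91 to -0.21 in Ang II 1 and were close to 0 in the other 2 libraries.

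The largest difference from control in Ang II replicate 1 was 1.77, in Mrps24, whose mRNA has 995 bases. Shorter transcripts came next. Mrpl54, whose mRNA has 604 bases, was at 35.1, 25.8 and 33.8 CPM in control and at 98.9, 31.5 and 31.6 CPM in Ang II hearts. Replicates 2 and 3 were inside the control range, and the log2 change was 0.77 with Ang II replicate 1 and 0.0013 without it. Mrpl52 with 418 bases, Mrpl33 with 478, Mrpl23 with 736 and Mrpl53 with 695 were each above the control mean by 1.41 to 1.55 in that library and differed from it by -0.069 to 0.12 in the other 2. Exceptions to the length order included Mrps16 with 2572 bases, Mrpl11 with 3045 and Mrpl17 with 7300, which were above by 1.34, 1.19 and 0.95. In the other direction, Mrpl22 with 722 bases was above by only 0.05. At the other end, 9 of the 78 lay below the control mean in Ang II replicate 1, and Mrpl32 was the lowest of them. This protein of the large subunit was at 6.02, 11.7 and 12.3 CPM in control and at 5.93, 15.0 and 14.2 CPM in Ang II hearts, and control replicate 1 was as low as Ang II replicate 1.

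When genes were summed by subunit, both sums were highest in Ang II replicate 1 and above all controls in replicate 3. In Ang II replicate 2 the large-subunit sum lay above all controls and the small-subunit sum just below them. Large-subunit genes summed to 1919.6, 1841 and 1932 CPM in control and to 3212, 1982 and 2026 CPM in Ang II hearts. Small-subunit genes summed to 779.7, 777 and 791 CPM in control and to 1285, 775 and 859 CPM in Ang II hearts. The ratio of the large to the small sum stayed between 2.36 and 2.56 over the 6 libraries. On the log2 scale the ratio of Ang II to control means was 0.34 for the large and 0.31 for the small subunit, and without Ang II replicate 1 it was 0.08 and 0.06. These ratios depend on the scaling: from counts outside mitochondrial genes and their nuclear copies, without trimmed-mean scaling, they were 0.14 and 0.12. As a share of those counts, the 78 genes took 0.649%, 0.633% and 0.651% in control and 0.862%, 0.618% and 0.650% in Ang II hearts; Ang II replicate 1 was above all controls, replicate 2 below them and replicate 3 among them.

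Grouped by origin, each class had a median log2 change above 0 with all 6 libraries, and 3 of the 4 without Ang II replicate 1. The 30 large-subunit genes with a bacterial counterpart had a median log2 change of 0.34, with 29 above 0, and the 21 mitochondria-specific large-subunit genes had 0.31, with 19 above 0. In the small subunit the 16 genes with a bacterial counterpart had 0.31, with 15 above 0, and the 10 mitochondria-specific genes had 0.26, with all 10 above 0. Without Ang II replicate 1 the median was -0.02 in the small-subunit genes with a bacterial counterpart, with 7 of 16 above 0, and 0.14 in the mitochondria-specific ones, with 7 of 10 above 0. In the large subunit it was then 0.08 in each class, with 22 of 30 and 19 of 21 above 0.

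Transcript levels within the family spanned a wide range. In control hearts the deposited FPKM, fragments scaled to length and depth, ran from 1.52 ± 0.408 for Mrps10 to 116 ± 12.8 for Mrps21 (SD, n = 3). Next to Mrps21 came Mrpl12 at 66.4 ± 11.7 and Mrpl42 at 46.0 ± 8.49 FPKM. The lowest were Mrps10, Mrpl32 at 1.90 ± 0.881, Mrps22 at 1.92 ± 0.373 and Mrpl19 at 2.13 ± 0.558 FPKM, with overlapping ranges of mean ± SD. Within each control library, however, Mrps10 lay below Mrps22 and Mrpl19. It was at 1.06, 1.83 and 1.67 FPKM in control replicates 1, 2 and 3, beside 1.57, 2.31 and 1.89 for Mrps22. Mrpl32, at 0.885, 2.48 and 2.33 FPKM, was below Mrps10 in replicate 1 only. The length behind the deposited FPKM matched, up to a constant of 1.09, the union of all annotated exons of a gene for all 78 members within 5%. Genes with long alternative exons therefore appear lower on that scale than per length of their coding mRNA. By CPM per kilobase of the mRNA with the longest coding sequence, Mrpl42 was highest at 280.4 ± 2.38. It was followed by Mrps21 at 233 ± 21.6, Mrpl30 at 196 ± 20.6, Mrpl12 at 84.7 ± 4.48 and Mrpl33 at 82.7 ± 8.38. Mrpl33 ranked 60 of 78 by FPKM and 5 by this measure, and Mrps18a ranked 35 and 7. The counts are those of the whole gene, so genes with exons outside the mRNA used can appear higher on this scale. That mRNA has 661 bases beside 3682 exon bases in Mrpl42, 587 beside 3226 in Mrpl30 and 478 beside 7326 in Mrpl33. Mrpl19 was lowest on this scale at 2.53 ± 0.246, and the highest value was 111 times the lowest. Of 77 neighbouring pairs in this order, 5 differed by more than the sum of their SDs, a comparison that does not pair values within a library.

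**Figure D4:**
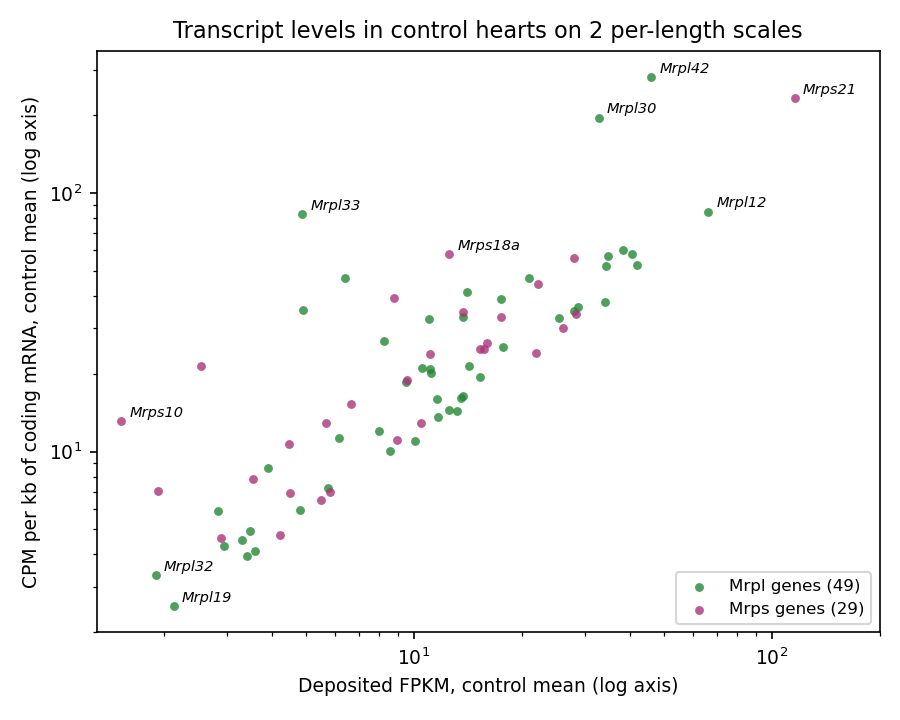
Each point is 1 gene, with its mean deposited FPKM in the 3 control hearts on the horizontal log axis and its mean CPM per kilobase of coding mRNA on the vertical log axis. Most genes lie along 1 band, and Mrpl33, Mrpl30, Mrpl42, Mrps18a and Mrps10 lie above it.

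Counts of some genes may be shared with other sequences. A copy at another locus, of at least 85% identity over at least 50% of the coding sequence, was found for 29 of the 78 genes. The table gives each copy a count of its own, and for 3 genes the mean count of the copy was more than 5% of the mean count of the gene. The ratio was 23.4% for Gm5776 and Mrps33, 7.86% for Mrpl48-ps and Mrpl48, and 5.79% for Gm6419 and Mrpl42. Exons of 33 of the 78 overlap another gene, and the strand setting of the counting is not given in the sources used here. Among these, Gm42688 covers the coding sequence of Mrpl53 on the same strand and had a mean count of 413% of that of Mrpl53, and Twnk overlaps Mrpl43 on the opposite strand and had 59.4%. Other overlaps were also long. Nr2c2 overlaps 4590 of 6576 exon bases of Mrps25, and Gcfc2 overlaps 1962 of 5450 of Mrpl19, both on the opposite strand. How reads were divided in such pairs was not tested. Values of the genes named here, and of the others whose exons overlap another gene, are uncertain.

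Many of these genes start close to a neighbour on the opposite strand. Pairs of protein-coding genes were taken whose starts lay up to 1000 bases apart or whose 5′ ends overlapped by up to 200 bases. Such a partner was found for 24 of the 78 (30.8%), beside 1443 of 13719 tested protein-coding genes (10.5%). The 5′ ends overlapped for the partners Eme1, Ndufb5, Gga3 and Ighmbp2. Mrps11 and Mrpl46 are each other's neighbour, with starts 30 bases apart, and their log2 changes were 0.34 and 0.17. The 20 tested partners outside the family had a median log2 change of 0.03, with 11 above 0. Their values ran from -0.75 for Ncapd2, a condensin subunit beside Mrpl51, to 1.04 for Eme1, which had a mean of 0.0898 CPM in control. Mrpl49 and its neighbour Fau, a cytosolic ribosomal protein gene, had log2 changes of 0.30 and 0.82, but Fau differed from the control mean by 1.84, -0.32 and -0.0002 in Ang II replicates 1, 2 and 3.

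Among 252 tested genes of 10 related lists, edgeR called 0. Without adjustment, 4 of these had p under 0.05 and were higher in Ang II hearts (3.57% of all genes), and 1 was lower (3.94%). Without Ang II replicate 1 edgeR again called 0, and 19 were higher (7.75% of all genes) and 13 lower (7.6%) at that threshold. DESeq2 called 1 of them, Ptcd1, and limma on FPKM called 0 of 247. Of 5 further mitoribosome proteins, Gadd45gip1 was at 49.6, 43.5 and 53.2 CPM in control and at 119, 46.8 and 52.3 CPM in Ang II hearts. Chchd1, Aurkaip1 and Gadd45gip1 were each high in replicate 1 only, and 4 of the 5 had a log2 change above 0, or 2 of 5 without that library. The 18 translation factors, such as the elongation factor Tufm, had list medians of -0.19, 0.23 and 0.19 as differences from control in Ang II replicates 1, 2 and 3. The 17 mitochondrial tRNA synthetases, which charge the tRNAs, had -0.48, 0.16 and 0.12. Both lists hold longer transcripts than the ribosomal proteins, with a median mRNA length of 2482 and 3336 bases, beside 1252 for the 78 genes. In Ang II replicates 2 and 3 together, 13 of 18 and 14 of 17 of these genes lay above the control mean.

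Assembly and rRNA modification factors of the ribosome had 17 of 24 genes above 0, with a median of 0.08. One of them, Ptcd1, which binds mitochondrial RNA and is needed to mature the large ribosomal RNA, was at 11.7, 13.7 and 12.5 CPM in control and at 17.8, 19.4 and 19.5 CPM in Ang II hearts. The groups did not overlap, and the log2 change was 0.58 (SE 0.14, unadjusted p = 0.00433, adjusted p = 0.42 by edgeR), or 0.62 without Ang II replicate 1. The mitochondrial ribosomal RNAs mt-Rnr1 and mt-Rnr2 were highest in Ang II replicate 1 and lowest in Ang II replicates 2 and 3. mt-Rnr1 was at 4873, 2901 and 3631 CPM in control and at 10873, 2068 and 2526 CPM in Ang II hearts. Their log2 changes were 0.44 and 0.24, and -0.73 for each without Ang II replicate 1. The 13 mitochondrially encoded mRNAs, which the ribosome translates, had a log2 change above 0 in 1 and a median of -0.25, or -0.39 without that library.

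Among regulators of nuclear genes for mitochondria, Ppargc1a, a coactivator, was at 24.6, 33.6 and 19.6 CPM in control and at 29.1, 38.7 and 39.2 CPM in Ang II hearts. The groups overlapped, and the log2 change was 0.46 (SE 0.24). Nrf1, which binds the NRF1 motif, was at 7.75, 8.53 and 4.67 CPM in control and 6.69, 3.33 and 3.08 CPM in Ang II hearts, with a log2 change of -0.68 (SE 0.38) and with replicates 2 and 3 below all controls. Its log2 change without Ang II replicate 1 was -1.12 (adjusted p = 0.164 by edgeR). Gabpa, a GABP subunit, was at 14.2, 18.5 and 15.9 CPM in control and at 8.97, 15.2 and 15.5 CPM in Ang II hearts, with a log2 change of -0.29 (SE 0.24), or -0.08 without Ang II replicate 1. The other subunit gene, Gabpb1, had a log2 change of -0.53 (SE 0.20), or -0.42 without that library. Gabpb1 was at 8.05, 8.26 and 10.5 CPM in control and at 5.24, 5.95 and 7.36 CPM in Ang II hearts, without overlap and with an adjusted p of 0.627 by edgeR. In the other direction, Esrrb was at 10.6, 9.52 and 9.92 CPM in control and at 11.2, 14.4 and 12.7 CPM in Ang II hearts, also without overlap. The log2 change of Esrrb was 0.35 (SE 0.16, adjusted p = 0.68 by edgeR), or 0.43 without Ang II replicate 1. Esrra, a nuclear receptor, was at 59.0, 52.9 and 61.5 CPM in control and at 66.8, 54.2 and 58.2 CPM in Ang II hearts, and its log2 change of 0.05 (SE 0.15) was -0.04 without Ang II replicate 1. Tfam, a factor in the packaging and transcription of mitochondrial DNA, was at 14.4, 15.8 and 13.9 CPM in control and at 11.2, 20.9 and 18.8 CPM in Ang II hearts. Ang II replicate 1 was below all controls and replicates 2 and 3 above them, with a log2 change of 0.21 (SE 0.25), or 0.44 (adjusted p = 0.164 by edgeR) without Ang II replicate 1.

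Other lists of short transcripts differed in direction in Ang II replicate 1. The 13 mitochondrially encoded mRNAs, with a median mRNA length of 784 bases, had a list median of -0.23 there. The 4 red blood cell markers, with a median of 663.5 bases, had -1.34. Nuclear respiratory chain subunits and cytosolic ribosomal proteins had higher medians there than the 78 genes. The 65 nuclear respiratory chain subunits had list medians of 0.88, 0.05 and 0.10 in Ang II replicates 1, 2 and 3, with 64 of them at a log2 change above 0, or 45 without Ang II replicate 1. The 85 tested cytosolic ribosomal proteins had 1.37, -0.26 and -0.13, with 83 above 0, or 9 without that library. Median mRNA lengths of these lists were 763 and 712 bases. The 78 mitochondrial ribosomal protein genes, at 0.64, 0.07 and 0.11, lay between these lists and the translation factors in Ang II replicate 1 and beside the respiratory chain subunits in replicates 2 and 3.

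**Figure D5:**
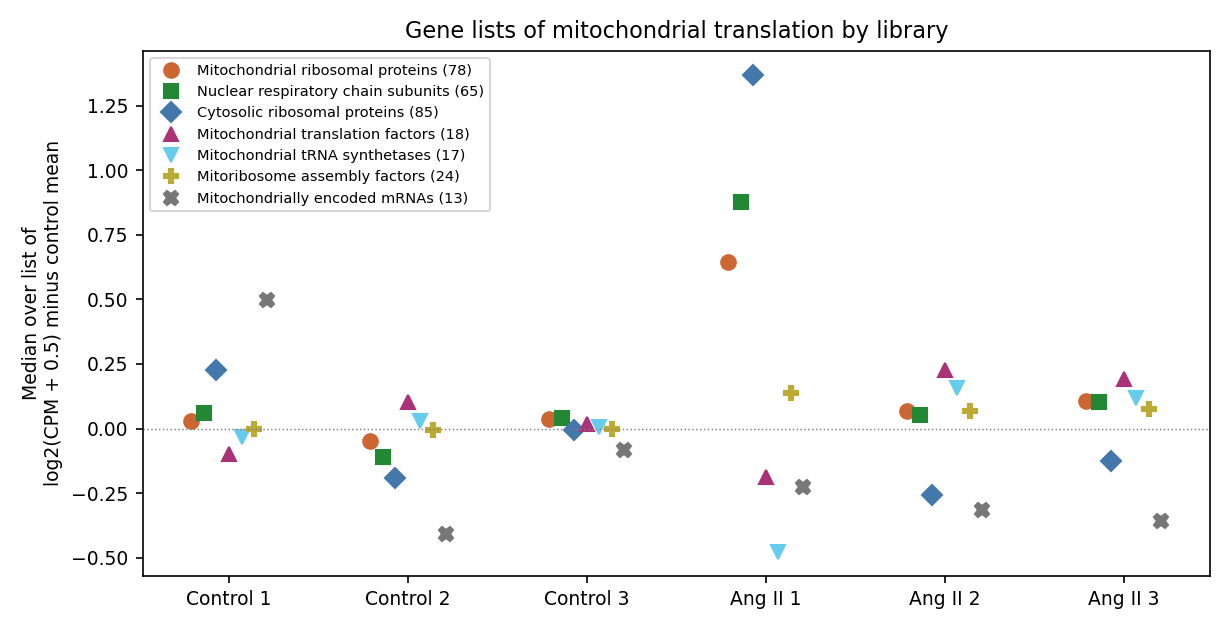
Each symbol is the median over 1 gene list, with the number of genes in brackets, of log2(CPM + 0.5) minus the control mean in 1 library. In Ang II 1 the medians ran from 1.37 for cytosolic ribosomal proteins through 0.64 for mitochondrial ribosomal proteins to -0.48 for mitochondrial tRNA synthetases, and in Ang II 2 and 3 from -0.36 to 0.23.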

How the data were processed

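Poly(A) RNA of 6 hearts was sequenced in paired ends, per the labels' protocols, from 10 µg of total RNA with an integrity number above 7 and inserts of 300 ± 50 bp. The submitters' processing notes list StringTie 1.3.0, HISAT2 2.0 and Bowtie 0.12.2 without roles, and the build mm8. Coordinates in the table matched GRCm38 as in GENCODE M21 for 51957 of 55141 shared IDs (94.2%), so GRCm38 positions are printed. The table deposited by the authors holds an FPKM and an estimated count per gene and library. The authors' estimated counts are whole numbers and were used as deposited; they are estimates, which a count model treats as reads. The deposited FPKM values were used for levels and for limma.

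Counts were tested with edgeR 4.0.16 (trimmed mean of M-values scaling, filterByExpr, quasi-likelihood test, two-sided) in R 4.3.3 on all 16759 genes passing the filter, with a Benjamini-Hochberg adjusted p of 0.05 as threshold. DESeq2 1.42.0 and limma 3.58.1 on log2(FPKM + 0.5) were run beside it, the latter on genes with an FPKM of at least 0.5 in 3 libraries. Standard errors were derived from the test statistic. Other scalings, pseudocounts, length offsets, the replicate number as a block and each library left out in turn were tried. A pair of alternatives added after the data were seen used annotated mRNA length with and without Ang II replicate 1. Copies were found with BLAST+ 2.17.0 and figures drawn with matplotlib 3.10.9. The fit was tested on simulated data. Libraries of a group differed by more than counting noise (chi-square over degrees of freedom from 31.6 to 442 per pair), which does not show whether they came from separate RNA preparations.

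The members and gene lists were chosen with earlier results of these data known. Named members are those with the smallest p in each direction (up to 8), the 4 highest and 4 lowest by FPKM, and a set fixed by role; other genes named were chosen after their values were seen. One list gene, Wbscr16, was not matched by name.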

Additional observations from a re-analysis of the deposited data

How the results depend on the processing

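None of the 78 genes was called at an adjusted p under 0.05 in any alternative run, beside 0% to 1.65% of all genes. In these runs 56 to 75 of them had a log2 change above 0, beside 48.5% to 57.9% of all genes. The median log2 change over the 78, 0.31 with all libraries, ran from 0.084, without Ang II replicate 1, to 0.41 with each library left out in turn. It was 0.13 with quantile normalization, 0.26 with an offset for annotated mRNA length and 0.091 with that offset and without Ang II replicate 1. The count of genes higher at an unadjusted p under 0.05 was 4 with all libraries. It was 7 with median-of-ratios scaling (3.76% of all genes were higher), with upper-quartile scaling (3.84%) and with an offset for the length recovered from FPKM (4.31%). It was 10 by DESeq2 (4.83% of all genes) and 2 by limma with each of the pseudocounts 0.5, 0.1 and 1 (3.19%, 3.05% and 3.26%). After quantile normalization it was 1 (3.92%), and with the mRNA length offset and without Ang II replicate 1 it was 13 (8.58%). With each library left out it ran from 1, without control replicate 2 (2.62% of all genes), to 13, without Ang II replicate 1 (7.75%). It was 2 without control replicate 1 (2.5%). The count of lower genes was 0 with all libraries and ran from 0 to 1 with each library left out (2.52% to 7.6% of all genes). The 1 was Mrpl15 without Ang II replicate 1. With the mRNA length offset and without that library the count was also 1 (7.74% of all genes). The log2 ratio of summed CPM ran from 0.079 to 0.46 for the large subunit and from 0.061 to 0.45 for the small one with each library left out, lowest without Ang II replicate 1. It was 0.14 and 0.12 without mitochondrial genes and their nuclear copies in the totals, and 0.34 for the small subunit with summed FPKM.

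Whether replicate numbers pair the hearts is not stated in the labels. Deviations of same-numbered libraries correlated at 0.139, 0.171 and -0.06. Control replicates 1 and 2 each correlated best with their own number, and control replicate 3 did not. With 3 libraries per group this check cannot decide whether the hearts were paired. With the replicate block, 0 of the 78 were called, 4 were higher at an unadjusted p under 0.05, 74 were above 0 and the median was 0.27.

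For 34 named genes, 613 of 646 values under alternatives kept their direction, and 33 over 12 genes changed sign; the cause was not tested. With each library left out in turn, the log2 change ran from -0.16 to 0.52 for Mrps12, -0.14 to 0.58 for Mrps18b, -0.21 to 0.36 for Mrps18c, -0.021 to 0.64 for Mrps21, -0.095 to 1.16 for Mrps24 and -0.28 to 0.58 for Mrps34, each lowest without Ang II replicate 1. It ran from -0.77 to 0.17 for Mrpl15, -0.033 to 0.55 for Mrpl32 and -0.071 to 0.095 for Mrpl39. Without Ang II replicate 1 and with the mRNA length offset it was -0.16 for Mrps12, -0.14 for Mrps18b, -0.20 for Mrps18c, -0.023 for Mrps21, -0.091 for Mrps24 and -0.27 for Mrps34. Quantile normalization gave -0.026 for Mrpl16, -0.11 for Mrpl39, -0.0047 for Mrpl42, -0.053 for Mrps18c and -0.0056 for Mrps21. With the recovered length as offset Mrpl15 was at 0.039, Mrpl39 at -0.0078 and Mrps9 at 0.037, and with annotated mRNA length Mrpl15 was at 0.018 and Mrps18c at -0.020. By limma Mrps9 was at 0.025, 0.026 and 0.023 with pseudocounts 0.5, 0.1 and 1. All 78 genes passed the filter on low counts.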
